A study of Mus musculus with 82 samples.

Results

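The zone 1 response of ribosome-bound RNA to stroke was compared between mouse cortex and white matter, using 20 of the 82 libraries of the series. The members are the 4 groups of immunoprecipitated (IP) RNA that the comparison needs, with 5 libraries each. They are cortex zone 1 after cortical stroke, cortex of uninjured (sham) mice, white matter zone 1 after white matter stroke, and white matter of uninjured (sham) mice. Zone 1 is the first of 5 numbered stroke zones of each model. The response of a region is zone 1 over uninjured tissue of that region, and the quantity of interest is the cortex response minus the white matter response, called the interaction here and given on the log2 scale.

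All 4 groups came from mice perfused with buffer, fixative and sucrose, whose tissue was frozen, sectioned and taken by laser capture before tagged ribosomes were pulled down. The sources used here do not give what drives the ribosome tag, which strain, sex and age the mice had, how each stroke was made or how long after it tissue was taken. Each region had its own stroke model, so differences between regions and between models cannot be told apart in the interaction. Libraries are not tied to animals in the labels, and every p-value below therefore reflects library-to-library spread only.

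After ischaemia, astrocytes near the lesion become reactive, raising intermediate filaments, acute-phase proteins and chemokines, while microglia take up debris through complement, phagocytic receptors and lysosomes. Cortex is built mainly of neurons with sparse myelin, and white matter mainly of myelinated axons with the oligodendrocytes that wrap them. A pull-down of tagged ribosomes is meant to enrich RNA of the cells that carry the tag, and can also hold RNA of other cells.

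The 20 libraries held 2518604 to 25390820 counts, with a median of 18129316. The mitochondrial ribosomal RNAs and 4 further features that collect ribosomal RNA were set aside, which left 389889 to 5708700 counts. Mitochondrial ribosomal RNA took 65.4% ± 6.24 of counts in cortex zone 1 and 85.0% ± 5.46 in uninjured cortex (SD, n = 5 each; exact two-sided permutation p = 0.00794). It took 69.6% ± 6.93 in white matter zone 1 and 76.6% ± 3.86 in uninjured white matter (exact two-sided permutation p = 0.0714). Of the counts left, mitochondrially encoded mRNAs took a mean of 7.77% in cortex zone 1 and 15.9% in uninjured cortex. In white matter they took 8.27% in zone 1 and 14.8% in uninjured tissue (exact two-sided permutation p = 0.00794 in each region). Cortex zone 1 replicate 1 was the shallowest library. White matter zone 1 replicate 1 had 9298 genes detected, the lowest number, and a scaling factor of 0.458. Libraries of one group resembled each other least in white matter zone 1, with a median pairwise correlation of 0.594 across genes, against 0.749 in cortex zone 1, 0.706 in uninjured white matter and 0.912 in uninjured cortex.

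Summed cell type markers show what the libraries held. The 24 astrocyte markers summed to 9562 to 12720 CPM (counts in every 1000000 counts of a library) in cortex zone 1 and 7320 to 13800 CPM in uninjured cortex, and to 12890 to 19290 CPM in white matter zone 1 and 8583 to 14670 CPM in uninjured white matter. The 20 neuron markers summed to 15950 to 23680 CPM in cortex zone 1 and 16760 to 24900 CPM in uninjured cortex, above the astrocyte sum of every library of the same group. The title of the series calls the profiles astrocyte-enriched. These sums are of IP libraries alone and are not scaled by gene length, so they do not measure enrichment over input. In white matter the neuron markers summed to 3455 to 20090 CPM in zone 1 and 1329 to 3244 CPM in uninjured tissue, without overlap. The 16 oligodendrocyte markers summed to 5613 to 9772 CPM in cortex zone 1 and 1930 to 2691 CPM in uninjured cortex. They ran the other way in white matter, with 8096 to 36660 CPM in zone 1 and 33550 to 55440 CPM in uninjured tissue. The 18 microglia and macrophage markers summed to 1812 to 3359 CPM in cortex zone 1 and 146.6 to 353.2 CPM in uninjured cortex, and to 1097 to 4506 CPM in white matter zone 1 and 235.8 to 466.3 CPM in uninjured white matter. White matter zone 1 replicate 3 stood apart, with the highest neuron sum and the lowest oligodendrocyte and microglia sums of its group. These sums move with the results below, and their part in them was not tested. In such bulk RNA, fewer cells of a type and less RNA per cell cannot be told apart.

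**Figure D1:**
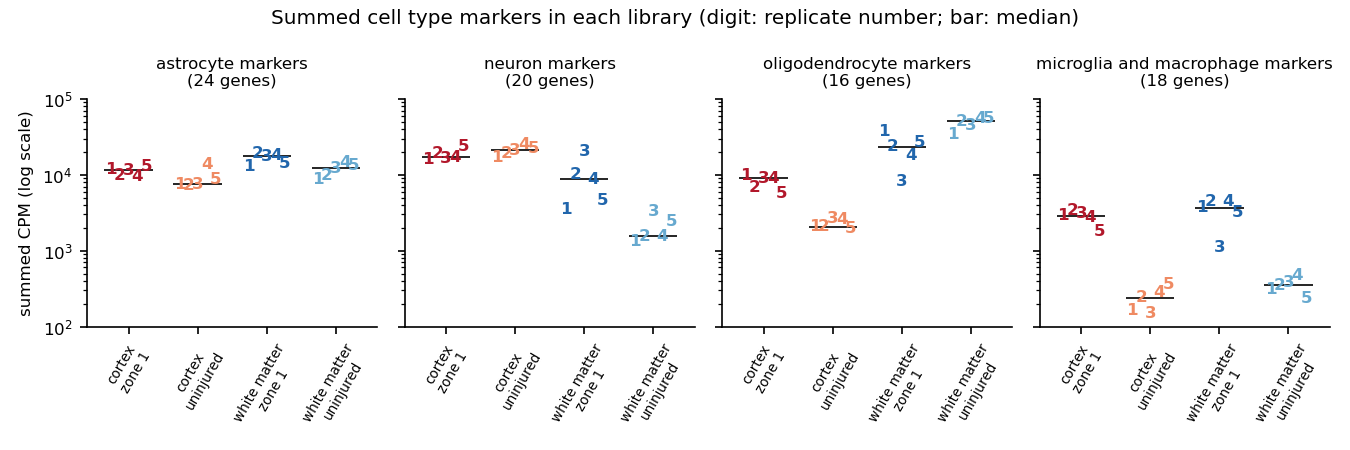
Summed CPM of 4 lists of cell type markers (log scale) in each IP library, with digits for replicate numbers and bars for the median of 5. The oligodendrocyte sum is higher in cortex zone 1 than in uninjured cortex and lower in most white matter zone 1 libraries than in uninjured white matter, the neuron sum separates zone 1 from uninjured tissue in white matter alone among the 2 regions, and the microglia sum is higher in zone 1 of both.

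Across 14601 genes, 274 had responses that differed between the regions (1.88% of genes, edgeR's quasi-likelihood test, Benjamini-Hochberg adjusted p under 0.05). In 124 of them (0.849%) the cortex response lay above the white matter response, and in 150 (1.03%) below it. With the size factors of DESeq2 in place of TMM scaling, the split was 74 above and 196 below, and limma voom with a spread for each region gave 183 above and 86 below. The cortex response called 89 genes, all higher in zone 1 (0.61%), and limma voom 56 higher and 7 lower. The white matter response called 1096 genes higher (7.51%) and 480 lower (3.29%), and limma voom 594 higher and 759 lower. These counts depend on a spread shared by both regions, and white matter libraries varied more, with a common biological coefficient of variation of 1.04 against 0.532 in cortex. Fitted alone, the 10 cortex libraries gave 602 genes higher (4.81%) and 62 lower (0.495%) in zone 1, and the 10 white matter libraries 40 higher (0.383%) and 7 lower (0.0671%). These shares differ between the regions, and the list counts below stand against them. The interaction count also moved with single libraries. It was 149, 147, 105 and 105 without cortex zone 1 replicate 1, 2, 3 or 4, and 153, 113, 132, 106 and 92 without uninjured cortex replicate 1, 2, 3, 4 or 5. It was 866 and 457 without white matter zone 1 replicate 1 or 5, and 155 without uninjured white matter replicate 1.

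In the fit of all 4 groups, 41 genes were called higher in zone 1 of both regions (0.281%), and none of the 41 had a called interaction. With 1.88% of all genes called, an absence of calls in a set this small does not show equal responses. Uncalled interactions in the set included −3.82 for Ifi27l2a and 3.01 for C4b. The count of 41 was 18 to 24 without cortex zone 1 replicate 2 or 3 or any 1 uninjured cortex library, 79 without white matter zone 1 replicate 1 or 3, and 19 (0.193% of 9870 genes) where each region was fitted alone, 12 of them among the 41. In the fit of all groups, 3 genes (0.0205%) were called in both responses with opposite signs, namely Nfasc, Ermn and Plxnb3, each higher in cortex zone 1 and lower in white matter zone 1.

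**Figure D2:**
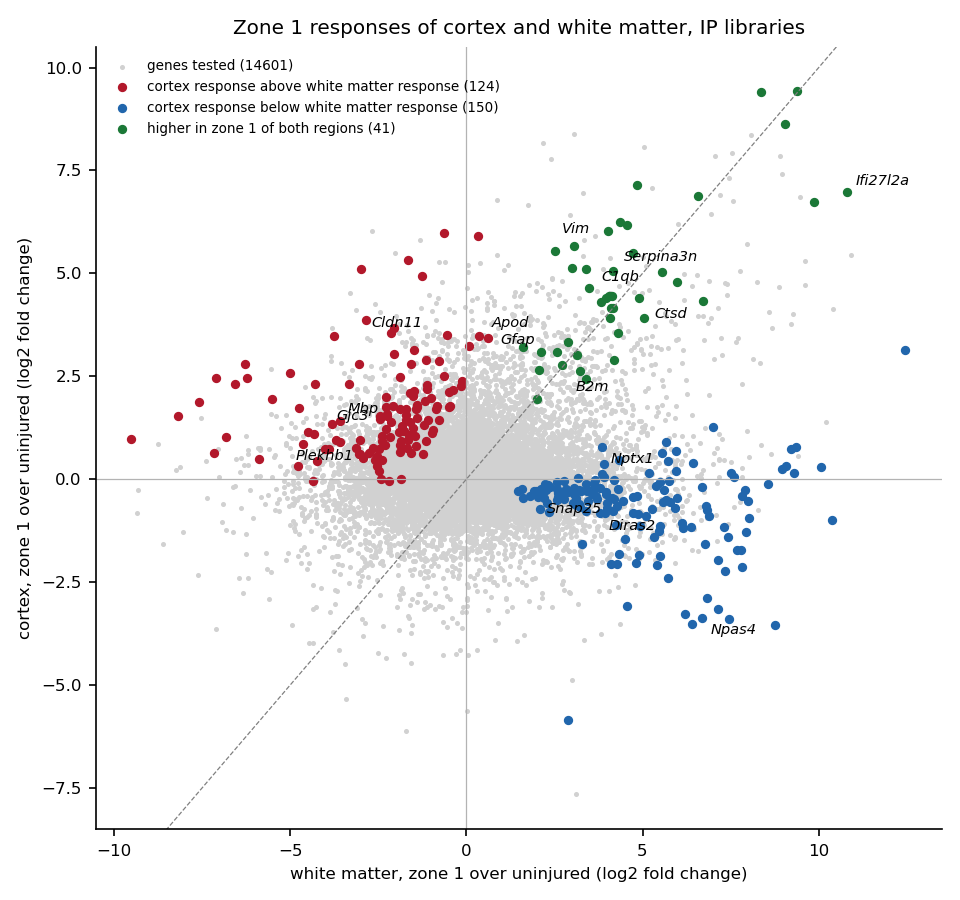
Log2 fold change of zone 1 over uninjured tissue in cortex (vertical axis) against that in white matter (horizontal axis) for the 14601 genes tested, with the dashed line where both are equal. The 124 genes with a cortex response above the white matter response hold Mbp, Cldn11, Apod and Gfap, the 150 below it hold Diras2, Nptx1, Prkce and Snap25, and the 41 genes higher in both regions lie in the upper right.

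Many genes of myelin and of oligodendrocytes had a higher response in cortex. Of 16 oligodendrocyte markers, all tested, 10 had a cortex response called above the white matter response and none below, with a median interaction of 2.79 against 0.08 over all genes. In cortex 8 of the 16 rose in zone 1 (median 2.05), and 12 did so in the cortex libraries alone. In white matter 3 of the 16 fell (median −0.95), and 1 did so in the white matter libraries alone. Without white matter zone 1 replicate 3, the library with the lowest oligodendrocyte sum, the interaction also called 10. It called 15 without the 3 shallowest zone 1 libraries (cortex zone 1 replicate 1 and white matter zone 1 replicates 1 and 5). Uninjured cortex replicates 1 and 2 stayed in that fit, with 1000526 and 1056155 counts outside the features set aside. White matter zone 1 replicate 1 had 1273468, so the fit is not a check of depth alone. The cortex count of 8 was 4, 5 and 4 without uninjured cortex replicate 2, 4 or 5. Among 12 markers of oligodendrocyte precursors the interaction called 2 higher, Olig1 and Bcas1, with values of 3.21 and 2.76.

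Cldn11 (claudin 11, the tight junction protein of the myelin sheath; chromosome 3, 31149920 to 31164324, forward strand, GRCm38) had the lowest interaction p of all. Its levels were 180, 97.0, 248, 221 and 115 CPM in cortex zone 1, against 13.8, 18.0, 18.8, 14.8 and 10.7 CPM in uninjured cortex. In white matter they were 430, 581, 116, 349 and 338 CPM in zone 1, against 435, 837, 477, 538 and 393 CPM in uninjured tissue. The cortex groups did not overlap, while 3 of 5 white matter zone 1 libraries lay below every uninjured one. Its cortex response was 3.50 ± 0.45 (SE, adjusted p = 2.7e-05), its white matter response −0.56 ± 0.41 (adjusted p = 0.388) and its interaction 4.06 ± 0.60 (adjusted p = 0.00133).

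Mbp (myelin basic protein, which compacts the sheath; chromosome 18, 82475146 to 82585637, forward strand) was the most abundant member. It had 2408, 1809, 2433, 2510 and 1616 CPM in cortex zone 1, against 832, 660, 1059, 849 and 682 CPM in uninjured cortex. The zone 1 libraries of white matter had 17443, 6889, 3497, 4221 and 10129 CPM, against 12099, 26202, 20194, 36039 and 32409 CPM in uninjured white matter. Every cortex zone 1 library was above every uninjured one, and 4 of 5 white matter zone 1 libraries were below every uninjured one. The cortex response was 1.40 ± 0.35 (adjusted p = 0.0547, and 6.2e-05 in the cortex libraries alone), the white matter response −1.59 ± 0.36 (adjusted p = 0.00635, and 0.116 in the white matter libraries alone), and the interaction 2.99 ± 0.50 (adjusted p = 0.00279).

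Mag (myelin-associated glycoprotein of the innermost myelin membrane) had 147, 188, 105, 245 and 113 CPM in cortex zone 1, against 15.7, 25.8, 20.6, 31.5 and 13.6 CPM in uninjured cortex. It had 1235, 266, 101, 240 and 195 CPM in white matter zone 1, against 808, 1313, 631, 883 and 900 CPM in uninjured white matter. Replicate 1 of white matter zone 1 was far above the other 4, which lay below every uninjured library. The interaction was 4.05 ± 0.71 (adjusted p = 0.00339), and 3.80 to 4.95 with 1 library left out at a time.

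The 3 genes called in opposite directions followed the same pattern without overlap in either region. Nfasc, neurofascin, whose glial form anchors myelin beside the node of Ranvier, had 750 to 1190 CPM in cortex zone 1 and 306 to 393 CPM in uninjured cortex, and 415 to 1230 CPM in white matter zone 1 and 1502 to 2459 CPM in uninjured white matter. Its responses were 1.44 ± 0.32 in cortex and −1.10 ± 0.32 in white matter. Ermn, the oligodendrocyte cytoskeletal protein ermin, had responses of 2.15 ± 0.44 in cortex and −1.50 ± 0.43 in white matter. Plxnb3, the semaphorin receptor plexin B3, had responses of 2.80 ± 0.48 in cortex and −1.56 ± 0.45 in white matter. Adjusted p lay between 0.00170 and 0.0255 for these 6 responses, and in the white matter libraries alone it was 0.194 to 0.272.

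Plekhb1, a pleckstrin homology protein, had 126, 150, 224, 148 and 132 CPM in cortex zone 1, against 86.7, 110, 118, 147 and 102 CPM in uninjured cortex, groups that overlapped. In white matter it had 544, 341, 159, 262 and 591 CPM in zone 1, against 1183, 2444, 1660, 3441 and 2722 CPM in uninjured tissue, with no overlap. Its white matter response was −2.60 ± 0.39 (adjusted p = 0.000248, and 0.0226 in the white matter libraries alone), the cortex response 0.47 ± 0.37, and the interaction 3.07 ± 0.53 (adjusted p = 0.00299). Gjc3, a connexin of myelinating glia, had 86.9 to 242 CPM in cortex zone 1 and 41.8 to 86.1 CPM in uninjured cortex, and 86.6 to 655 CPM in white matter zone 1 and 1322 to 2067 CPM in uninjured white matter. The groups did not overlap in either region, with a cortex response of 1.22 ± 0.41 (adjusted p = 0.244), a white matter response of −2.27 ± 0.42 (adjusted p = 0.00161) and an interaction of 3.50 ± 0.59 (adjusted p = 0.00279).

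Apod, apolipoprotein D, a lipid carrier made by glia, differed by its cortex response. It had 577, 469, 296, 459 and 242 CPM in cortex zone 1, against 30.4, 24.2, 33.3, 66.0 and 27.2 CPM in uninjured cortex. White matter had 1211, 1399, 500, 797 and 1059 CPM in zone 1, against 694, 681, 889, 954 and 660 CPM in uninjured tissue. Its cortex response was 3.48 ± 0.40 (adjusted p = 5.8e-06), its white matter response 0.36 ± 0.36 (adjusted p = 0.563), and its interaction 3.13 ± 0.53 (adjusted p = 0.00279). The remaining genes of the 12 with the lowest interaction p in this direction were Sema6d (3.06), a semaphorin, Tmem63a (3.58), a mechanically gated channel, and Bcas1os1 (4.00), annotated opposite Bcas1. Since the strand of counting is not given, reads of Bcas1os1 and Bcas1 cannot be told apart.

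Gfap, glial fibrillary acidic protein, the filament that defines reactive astrocytes (chromosome 11, 102887336 to 102900912, reverse strand), was the astrocyte marker with a called interaction, the only one of 24. It had 1000, 1250, 1117, 752 and 614 CPM in cortex zone 1, against 115, 109, 84.8, 50.3 and 80.6 CPM in uninjured cortex. Levels in white matter zone 1 were 4642, 2221, 700, 2028 and 2553 CPM, against 1809, 1478, 1686, 1641 and 1308 CPM in uninjured white matter. The cortex groups were far apart, and in white matter 4 zone 1 libraries were above every uninjured one while replicate 3 was below them all. Gfap rose by 3.43 ± 0.40 in cortex (adjusted p = 5.8e-06), its white matter response was 0.62 ± 0.36 (adjusted p = 0.279), and its interaction was 2.81 ± 0.52 (adjusted p = 0.00467). Between uninjured regions Gfap was lower in cortex by 4.17 on the log2 scale (adjusted p = 6.0e-08), and in zone 1 the difference was −1.36 (adjusted p = 0.0550).

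**Figure D3:**
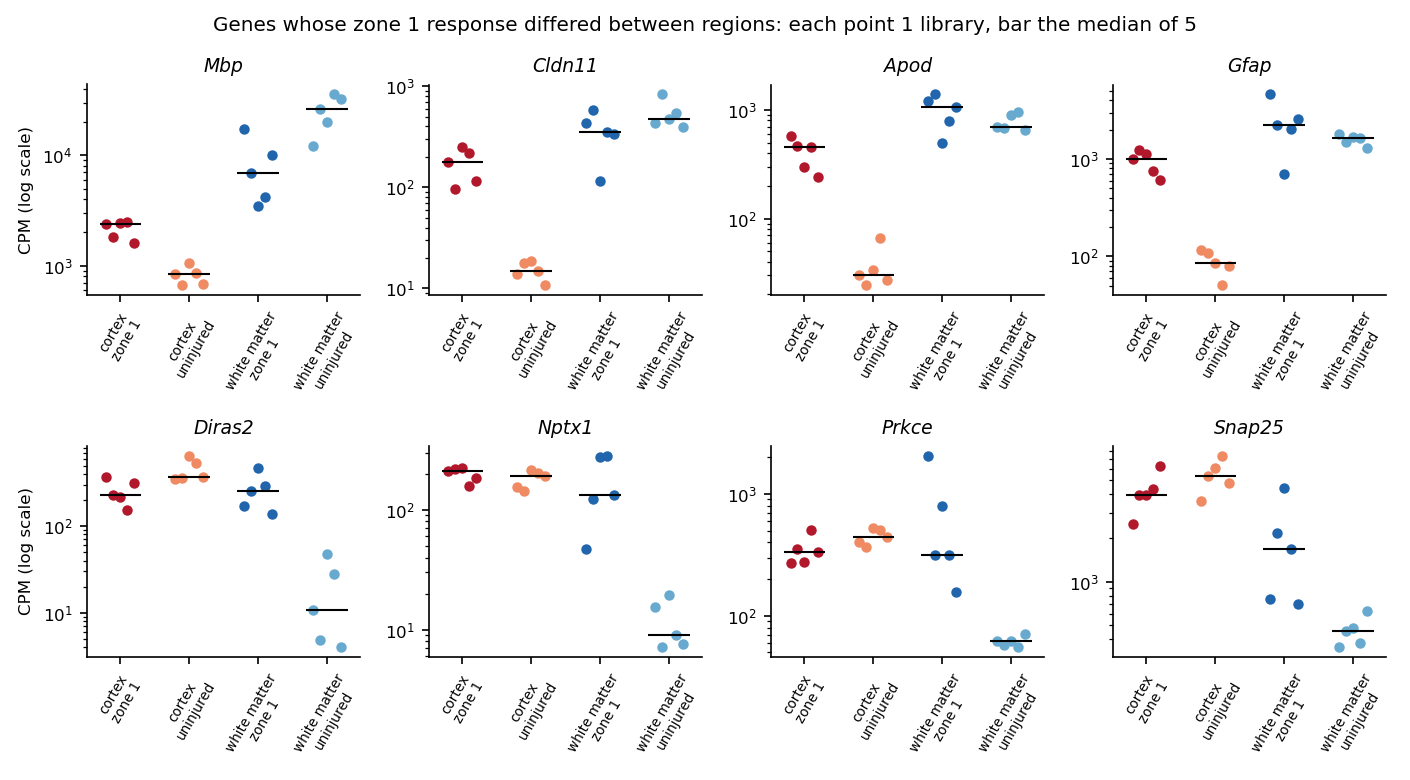
CPM on a log scale in each IP library (points) with the median of 5 (bar) for 4 genes with a cortex response above the white matter response (top row) and 4 with a cortex response below it (bottom row). Cldn11, Apod and Gfap separate cortex zone 1 from uninjured cortex, and Diras2, Nptx1, Prkce and Snap25 separate white matter zone 1 from uninjured white matter while their cortex groups overlap.

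In white matter, neuronal genes were higher in zone 1 than in uninjured tissue, and in cortex their levels overlapped between zone 1 and uninjured tissue. Of 20 neuron markers, 4 had an interaction called below 0 and none above, with a median of −2.18. The white matter response called 16 of the 20 higher (median 2.04), and the cortex response called no member, with a median of −0.15. In the white matter libraries alone 1 of the 20 was called higher, and in the cortex libraries alone 1 was called lower. Without white matter zone 1 replicate 3, which had the highest neuron sum, the interaction called 3 and the white matter response 11. The interaction called 15 and 12 without white matter zone 1 replicate 1 or 5, 7 without uninjured white matter replicate 3 or 5, and 2 without cortex zone 1 replicate 3 or 4 or uninjured cortex replicate 4 or 5.

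Of 19 genes of synaptic vesicles and transmitter release, 5 of them also neuron markers, 6 had a lower response in cortex (median −2.19), 14 rose in white matter zone 1 (median 1.91) and the cortex response called no member. In the white matter libraries alone 1 of 18 tested was called higher, and with the replicate number as a block the interaction called 2. The count of 6 was 16 without white matter zone 1 replicate 1, and 2 or 3 without cortex zone 1 replicate 1, 2, 3 or 4, uninjured cortex replicate 2, 3, 4 or 5, white matter zone 1 replicate 3 or uninjured white matter replicate 1, 2 or 4. Snap25, a membrane fusion protein of nerve terminals and the most abundant neuron marker, had 2514, 3988, 3993, 4395 and 6321 CPM in cortex zone 1, against 3592, 5374, 6107, 7433 and 4804 CPM in uninjured cortex. In white matter it had 762, 2172, 4465, 1692 and 699 CPM in zone 1, against 353, 458, 478, 377 and 622 CPM in uninjured tissue. The white matter groups did not overlap and the cortex groups did. Its white matter response was 2.10 ± 0.40 (adjusted p = 0.00188, and 0.0705 in the white matter libraries alone) and its interaction −2.46 ± 0.55 (adjusted p = 0.0192). Syp, synaptophysin of the vesicle membrane, had an interaction of −3.85 ± 0.78, Syn1, which tethers vesicles, −2.46 ± 0.58, and Sv2b, a vesicle glycoprotein, −3.75 ± 0.91. Among 17 genes of the neuronal cytoskeleton, Map2 of dendrites and Map1b of growing axons had interactions of −1.81 ± 0.46 and −1.77 ± 0.42, the 2 called, and with the block the interaction called 0 of the 17.

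Diras2, a small GTPase, had the lowest interaction p among genes with a lower response in cortex. It had 369, 228, 215, 153 and 317 CPM in cortex zone 1, against 352, 356, 653, 532 and 374 CPM in uninjured cortex. In zone 1 of white matter it had 170, 256, 463, 289 and 139 CPM, against 10.8, 4.77, 47.0, 27.9 and 4.01 CPM in uninjured white matter. Every white matter zone 1 library was above every uninjured one, and 4 of 5 cortex zone 1 libraries were below every uninjured one. Its white matter response was 3.79 ± 0.57 (adjusted p = 0.000255, and 0.0299 in the white matter libraries alone) and its interaction −4.62 ± 0.75 (adjusted p = 0.00279).

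Nptx1, neuronal pentraxin 1, a secreted protein that gathers glutamate receptors at synapses, had 210, 220, 225, 157 and 184 CPM in cortex zone 1, against 154, 143, 215, 205 and 191 CPM in uninjured cortex. In white matter it had 46.8, 124, 274, 284 and 132 CPM in zone 1, against 15.4, 7.16, 19.6, 8.98 and 7.58 CPM in uninjured tissue, with no overlap. Its white matter response was 3.86 ± 0.51 (adjusted p = 4.7e-05, and 0.0268 in the white matter libraries alone) and its interaction −3.73 ± 0.66 (adjusted p = 0.00355). Prkce, protein kinase C epsilon, had 269, 350, 274, 509 and 332 CPM in cortex zone 1, against 401, 364, 525, 504 and 441 CPM in uninjured cortex. In white matter it had 2061, 317, 796, 314 and 156 CPM in zone 1, against 62.5, 58.0, 61.9, 55.4 and 70.9 CPM in uninjured tissue. Replicate 1 of white matter zone 1 was the highest, and all 5 exceeded the uninjured libraries. Its interaction was −3.92 ± 0.68 (adjusted p = 0.00299).

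Chgb, chromogranin B of dense-core secretory granules, had 263, 520, 267, 377 and 600 CPM in cortex zone 1, against 464, 350, 630, 688 and 365 CPM in uninjured cortex. The zone 1 libraries of white matter had 624, 126, 464, 163 and 103 CPM, against 38.8, 2.39, 33.7, 11 and 7.58 CPM in uninjured white matter. The white matter groups did not overlap, and the interaction was −4.26 ± 0.80 (adjusted p = 0.00520). The 250 bases before its start in RefSeq (GRCm38.p6, chr2:132781392-132781641, forward strand) are shown because they hold the full cyclic AMP response element, TGACGTCA, in capitals. That motif reads the same on both strands and occurred in 1.55% of 32851 promoter windows of this length, and in 1 of the 8 genes with a match in the table among the 12 with a lower response in cortex. The motifs were chosen with these genes in view, and a match describes letters, not a bound site.
Chgb: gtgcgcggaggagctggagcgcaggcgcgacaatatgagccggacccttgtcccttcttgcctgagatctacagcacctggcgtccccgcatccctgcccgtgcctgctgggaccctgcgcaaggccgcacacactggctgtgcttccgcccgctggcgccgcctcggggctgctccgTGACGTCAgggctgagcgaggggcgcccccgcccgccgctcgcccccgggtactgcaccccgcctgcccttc

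Npas4, a transcription factor switched on by neuronal activity, had a very low level in most libraries. It had 0, 1.20, 2.04, 1.30 and 8.64 CPM in cortex zone 1, against 23.1, 23.5, 21.8, 23.5 and 58.0 CPM in uninjured cortex, with no overlap. Levels in white matter zone 1 were 0, 9.39, 45.6, 25.8 and 173 CPM, against 0, 0, 1.28, 0.499 and 0.446 CPM in uninjured white matter. Its fitted interaction was −10.05 ± 1.67 (adjusted p = 0.00279), and its cortex response had an adjusted p of 0.183 in the fit of all groups and 0.00344 in the cortex libraries alone. It was the only immediate early gene of 14 tested with a called interaction, while the white matter response called 5 of the 14 higher, and 0 of 7 tested in the white matter libraries alone. Over all genes the white matter response called 7.51% higher, and 0.383% in the white matter libraries alone.

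The other genes of the 12 with the lowest interaction p in this direction were low in uninjured white matter. Chrnb2, a nicotinic receptor subunit, had 39.6 to 530 CPM in white matter zone 1 and 3.84 to 19.1 CPM in uninjured white matter (interaction −4.68 ± 0.86). Chd5, a chromatin remodeller of neurons, had 128 to 610 CPM in zone 1 and 39.7 to 101 CPM in uninjured tissue (interaction −3.13 ± 0.63). Cfap54 (−5.54), Ptprr (−7.33), Osbpl3 (−7.54) and Sh3bp1 (−6.14) had medians of 0.427 to 3.53 CPM in uninjured white matter, so their fold changes rest on few counts. Sh3bp1 had 1313 CPM in white matter zone 1 replicate 1 and a median of 43.2 CPM, and without 1 library its interaction ranged from −6.66 to −3.40. Nat14 had 75, 9, 257, 53 and 0 counts in white matter zone 1, against 1, 0, 1, 0 and 0 counts in uninjured white matter. Its groups overlapped, and replicate 3 of zone 1 held most of the counts.

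Between uninjured regions the same lists were far apart, and in zone 1 they were closer. The 16 oligodendrocyte markers were lower in uninjured cortex than in uninjured white matter, with 15 called and a median of −4.87, whereas 7 were called lower between cortex zone 1 and white matter zone 1, with a median of −1.97. The 20 neuron markers were higher in uninjured cortex, with 17 called and a median of 2.95, whereas 2 were called between the zone 1 groups, with a median of 0.61. Over all genes the comparison of uninjured regions called 2117 (14.5%), 1131 of them higher in cortex (7.75%) and 986 lower (6.75%), and the comparison of zone 1 called 188 (1.29%), 32 of them higher in cortex (0.219%) and 156 lower (1.07%). With limma voom these were 2183 higher and 986 lower in uninjured cortex, and 154 higher and 64 lower in cortex zone 1. These comparisons use the same libraries as the responses and describe the same interaction from the other side.

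The shared response was a rise of genes of microglia, complement and lysosomes, with part of the reactive astrocyte set. Of 18 microglia and macrophage markers 10 rose in cortex zone 1 (median 3.46) and 12 in white matter zone 1 (median 3.55), and 7 were called in both. The interaction called no member and had a median of 0.07. With 1.88% of all genes called, an absence of calls among 18 genes says little. In the cortex libraries alone 17 of 17 tested rose, and in the white matter libraries alone 5 of 17. The cortex count of 10 was 5 or 6 without cortex zone 1 replicate 2 or any 1 uninjured cortex library. The 14 blood leukocyte genes summed to 24.67 to 82.07 CPM in cortex zone 1 and 1.722 to 9.468 CPM in uninjured cortex. In white matter they summed to 24.19 to 274.8 CPM in zone 1 and 0 to 43.14 CPM in uninjured tissue, with overlap. Ptprc was the only gene of the list with enough counts to be tested. It made up most of each zone 1 sum, so the sums do not show a rise of the list as a whole. Of the 14, 5 were at 0 in cortex zone 1 and 10 in uninjured cortex, and 4 were at 0 in white matter zone 1 and 8 in uninjured white matter. Of the T cell genes, Cd3g was at 0 in all 4 groups, while Cd3e was detected in zone 1 of both regions and at 0 in both uninjured groups. The part of blood cells in the shared rise was not tested.

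C1qb, a chain of the C1q complex that starts the classical complement pathway (chromosome 4, 136880129 to 136886187, reverse strand), had the lowest p for a rise in both. It had 453, 708, 585, 533 and 309 CPM in cortex zone 1, against 15.7, 21.9, 15.1, 22.8 and 41.5 CPM in uninjured cortex. In zone 1 of white matter it had 1076, 719, 252, 627 and 711 CPM, against 69.5, 24.7, 34.2, 42.9 and 31.2 CPM in uninjured white matter. There was no overlap in either region. It rose by 4.46 ± 0.47 in cortex (adjusted p = 2.1e-06) and 4.06 ± 0.46 in white matter (adjusted p = 1.0e-05, and 0.00317 in the white matter libraries alone). Its interaction was 0.40 ± 0.58.

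Csf1r, the receptor for the growth factor that keeps microglia alive, had 228, 307, 264, 290 and 177 CPM in cortex zone 1, against 22.1, 26.6, 21.8, 44.0 and 39.9 CPM in uninjured cortex. The zone 1 libraries of white matter had 400, 516, 65.4, 390 and 364 CPM, against 31.2, 50.9, 42.7, 50.4 and 22.3 CPM in uninjured white matter. Its responses were 3.02 ± 0.48 in cortex (adjusted p = 0.000716) and 3.14 ± 0.49 in white matter (adjusted p = 0.000288). C1qc, Fyb, an adaptor of immune cells, and Mpeg1, perforin-2 of macrophages, showed no overlap in either region either. Mpeg1 rose by 4.44 ± 0.56 in cortex and 4.12 ± 0.55 in white matter. Of 13 complement genes tested, 6 rose in cortex, 5 in white matter and 4 in both, and 9 of 11 rose in the cortex libraries alone and 2 of 10 in the white matter libraries alone. Over all genes 0.61% rose in cortex and 7.51% in white matter, and 4.81% and 0.383% in the libraries of each region alone.

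Lysosomal and phagocytic genes rose in 9 of 22 cases in cortex (median 2.40) and 15 of 22 in white matter (median 2.14), with 7 in both. In the cortex libraries alone 19 of 22 rose, and in the white matter libraries alone 3 of 22. The cortex count of 9 was 4 or 5 without cortex zone 1 replicate 2 or 4 or any 1 uninjured cortex library. Ctsd, cathepsin D, the main aspartic protease of lysosomes, had 1672, 2592, 1753, 2513 and 1071 CPM in cortex zone 1, against 125, 94.6, 111, 134 and 171 CPM in uninjured cortex. It had 19918, 3884, 546, 3738 and 4462 CPM in white matter zone 1, against 154, 238, 88.0, 247 and 258 CPM in uninjured white matter. No zone 1 library overlapped the uninjured ones, and white matter zone 1 replicate 1 was far above the rest. It rose by 3.92 ± 0.56 in cortex (adjusted p = 0.000160) and 5.05 ± 0.59 in white matter (adjusted p = 1.0e-05), and the interaction was −1.13 ± 0.71 (adjusted p = 0.432), or −0.20 to −1.43 with 1 library left out. Lyz2, lysozyme of myeloid cells, rose by 5.50 ± 1.00 in cortex and 4.72 ± 0.97 in white matter, and Cd68, a macrophage lysosomal protein, by 4.31 ± 0.90 in cortex and 3.83 ± 0.87 in white matter. Gas6, a bridging ligand for phagocytic receptors, was the exception with a called interaction, −3.89 ± 0.94, having 18.2 to 416 CPM in white matter zone 1 and 3.53 to 17.9 CPM in uninjured white matter, with cortex groups that overlapped.

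B2m, beta-2 microglobulin, the light chain of class I major histocompatibility complexes, had 176, 396, 371, 347 and 291 CPM in cortex zone 1, against 36.9, 50.8, 46.7, 67.7 and 51.0 CPM in uninjured cortex. Levels in white matter zone 1 were 430, 680, 669, 524 and 459 CPM, against 23.9, 46.1, 46.1, 87.8 and 93.1 CPM in uninjured white matter. Both regions separated fully. It rose by 2.64 ± 0.42 in cortex (adjusted p = 0.000699) and 3.22 ± 0.43 in white matter (adjusted p = 4.7e-05), with an interaction of −0.58 ± 0.56. Among 14 genes of antigen presentation tested, 1 rose in cortex and 6 in white matter, with medians of 3.07 in cortex and 3.20 in white matter. Fitted alone, the cortex libraries called 6 of 8 higher and the white matter libraries 1 of 6. Of 21 interferon response genes, 1 rose in cortex and 8 in white matter, with medians of 3.20 and 2.72, and the interaction called no member. In the cortex libraries alone 10 of 12 interferon response genes tested rose, and in the white matter libraries alone no member of 13. Over all genes 0.61% were called higher in cortex and 7.51% in white matter, and 1.88% had a called interaction. In the cortex libraries alone the share called higher was 4.81%, and in the white matter libraries alone 0.383%. With shares this unlike, the counts of the 2 regions cannot be compared directly.

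Cxcl10, a chemokine induced by interferon, was not detected in uninjured cortex. Its levels were 53.8, 12.9, 69.8, 1.95 and 16.9 CPM in cortex zone 1, or 465 counts against 0 in uninjured cortex, at least 81.7-fold higher taking a floor of 3 counts over the group. In zone 1 of white matter it had 10.4, 25.1, 0.396, 59.5 and 129 CPM, or 397 counts, against 1 count in uninjured white matter, a ratio of 533 (95% exact interval 95.1 to 21100, counting error only). Ifi27l2a, another interferon-induced gene, had 244 counts in cortex zone 1 against 1 in uninjured cortex, and 1544 counts in white matter zone 1 against 1 in uninjured white matter. In white matter zone 1 it had 849 CPM in replicate 1 and 2.77 to 157 CPM in the other 4.

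The promoters of B2m, Cxcl10 and Ctsd are shown because each holds a textbook motif of the pathway its gene belongs to, in capitals. Each run is the 250 bases before the start in RefSeq, GRCm38.p6, read 5′ to 3′ on the gene's strand: B2m chr2:122147437-122147686 forward, Cxcl10 chr5:92348890-92349139 reverse, and Ctsd chr7:142387828-142388077 reverse. The interferon-stimulated response element was searched as GAAA, any 2 bases and GAAA on both strands, present in 2.98% of 32851 windows, and the lysosomal CLEAR motif as TCACGTGA, present in 0.785%. Of the 12 shared genes named here, 9 had a match in the promoter table, of which 2 held the interferon element and 1 the CLEAR motif. Among the 12 with a higher response in cortex, 10 had a match, of which 1, Gjc3, held the interferon element.
B2m: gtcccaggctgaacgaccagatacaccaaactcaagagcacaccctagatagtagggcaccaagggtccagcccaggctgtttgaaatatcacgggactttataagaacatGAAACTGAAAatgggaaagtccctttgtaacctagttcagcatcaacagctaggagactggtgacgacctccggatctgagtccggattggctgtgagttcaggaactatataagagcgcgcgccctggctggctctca
Cxcl10: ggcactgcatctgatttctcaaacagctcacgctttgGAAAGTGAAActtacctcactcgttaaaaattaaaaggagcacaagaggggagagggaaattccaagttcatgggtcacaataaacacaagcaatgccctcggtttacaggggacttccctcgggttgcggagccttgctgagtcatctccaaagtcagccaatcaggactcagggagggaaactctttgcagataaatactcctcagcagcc
Ctsd: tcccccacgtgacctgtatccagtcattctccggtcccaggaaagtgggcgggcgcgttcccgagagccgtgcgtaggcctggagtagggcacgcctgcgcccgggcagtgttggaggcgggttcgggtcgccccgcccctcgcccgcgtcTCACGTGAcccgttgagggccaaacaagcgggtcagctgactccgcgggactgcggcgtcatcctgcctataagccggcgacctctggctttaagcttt

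Reactive astrocyte genes were in part shared. Of 13 pan-reactive genes 9 could be tested, 5 rose in cortex (median 3.43), 4 in white matter (median 3.02) and 3 in both. Fitted alone, the cortex libraries called 5 of 7 higher and the white matter libraries 2 of 7. Over all genes the shares called higher were 0.61% in cortex and 7.51% in white matter, and 4.81% and 0.383% fitted alone. Serpina3n, a secreted protease inhibitor of the acute phase, had 1071, 1106, 418, 541 and 274 CPM in cortex zone 1, against 10.1, 50.1, 18.8, 4.25 and 20.6 CPM in uninjured cortex. The zone 1 libraries of white matter had 2506, 1516, 588, 1692 and 812 CPM, against 10.3, 21.5, 31.2, 143 and 190 CPM in uninjured white matter. It rose by 5.05 ± 0.75 in cortex (adjusted p = 0.000417) and 4.17 ± 0.72 in white matter (adjusted p = 0.00110, and 0.0199 in the white matter libraries alone), with no overlap in either region. Its interaction was 0.88 ± 0.90.

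Vim, the intermediate filament vimentin, had 844, 993, 660, 292 and 243 CPM in cortex zone 1, against 5.54, 10.2, 12.7, 20.1 and 9.46 CPM in uninjured cortex. Levels in white matter zone 1 were 563, 902, 38.5, 784 and 271 CPM, against 74.6, 62.8, 20.5, 75.8 and 72.6 CPM in uninjured white matter. The cortex groups were far apart, and in white matter replicate 3 lay among the uninjured libraries. It rose by 5.68 ± 0.67 in cortex (adjusted p = 6.1e-06) and 3.06 ± 0.59 in white matter (adjusted p = 0.00225), and the interaction of 2.62 ± 0.79 did not pass the test (adjusted p = 0.0793). C4b, the complement protein that follows C1q, had 64.9, 165, 120, 166 and 41.0 CPM in cortex zone 1, against 5.54, 4.69, 0.606, 1.79 and 0.411 CPM in uninjured cortex. In zone 1 of white matter it had 721, 349, 44.8, 368 and 767 CPM, against 65.2, 62.0, 42.3, 116 and 104 CPM in uninjured white matter. It rose by 5.54 ± 0.74 in cortex (adjusted p = 4.9e-05) and 2.53 ± 0.62 in white matter (adjusted p = 0.0112), and its interaction of 3.01 ± 0.89 did not pass (adjusted p = 0.0724).

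**Figure D4:**
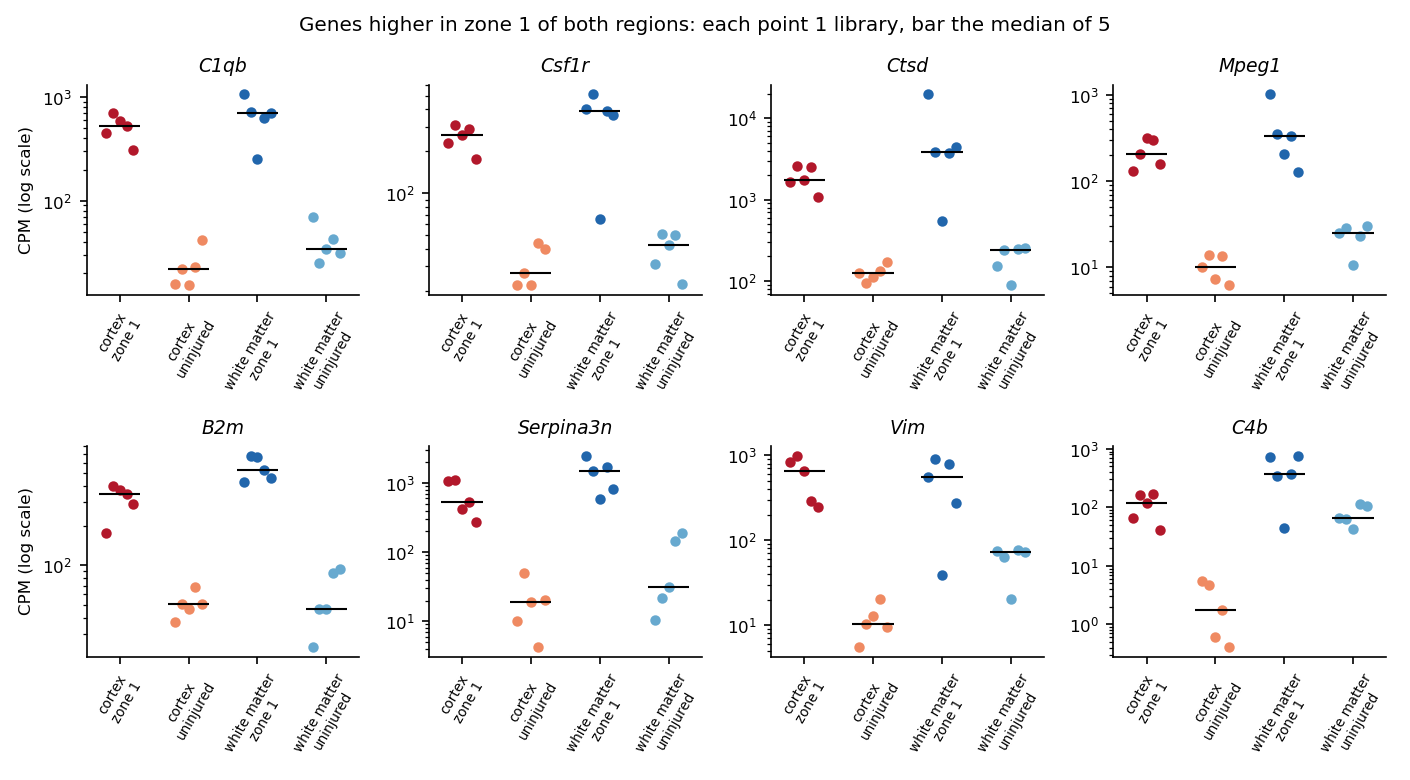
CPM on a log scale in each IP library (points) with the median of 5 (bar) for 8 genes called higher in zone 1 of both regions. In cortex none of the 8 overlaps between zone 1 and uninjured tissue, and in white matter replicate 3 is the lowest zone 1 library for C1qb, Csf1r, Ctsd, Serpina3n, Vim and C4b.

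Of the 24 astrocyte markers, Gfap included, 2 rose in cortex (median 0.24) and 1 in white matter (median 0.44). Among all genes 0.61% were called higher in cortex and 7.51% in white matter, so the white matter count does not exceed that share. In the cortex libraries alone 3 were called higher and 1 lower, and in the white matter libraries alone 0 of 23. Aqp4, the water channel of astrocyte endfeet, had 147, 169, 158, 186 and 123 CPM in cortex zone 1, against 32.3, 30.5, 37.0, 51.2 and 36.2 CPM in uninjured cortex. The zone 1 libraries of white matter had 327, 407, 386, 353 and 46.3 CPM, against 154, 83.5, 205, 228 and 312 CPM in uninjured white matter. Its cortex response was 2.06 ± 0.48 (adjusted p = 0.0340), its white matter response 0.63 ± 0.46 (adjusted p = 0.393) and its interaction 1.43 ± 0.65 (adjusted p = 0.249). Slc1a2, the main glutamate transporter of astrocytes, had 2083 to 4481 CPM in cortex zone 1 and 1921 to 4777 CPM in uninjured cortex, and 4193 to 7174 CPM in white matter zone 1 and 2947 to 5304 CPM in uninjured white matter. Aldh1l1, the folate enzyme often used to mark astrocytes, had 32.7 to 87.2 CPM in cortex zone 1 and 14.1 to 38.7 CPM in uninjured cortex, with an interaction of 1.34 ± 0.85 (adjusted p = 0.435).

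Of 13 cell cycle genes tested 3 rose in cortex and 1 in white matter, and 4 of 6 rose in the cortex libraries alone and 0 of 7 in the white matter libraries alone. The share of all genes called higher was 0.61% in cortex and 7.51% in white matter, so the white matter count lies near it. Top2a, a topoisomerase of dividing cells, had 11.5 to 47.6 CPM in cortex zone 1 and 0 to 2.35 CPM in uninjured cortex, and 0 to 36.8 CPM in white matter zone 1 and 1.78 to 139 CPM in uninjured white matter (interaction 6.99 ± 1.61, adjusted p = 0.0233). Mki67, the proliferation marker, rose by 4.54 ± 0.87 in cortex (adjusted p = 0.00556), and its interaction of 3.16 ± 1.08 did not pass (adjusted p = 0.116). Of 14 lipid transport genes 4 rose in cortex and 5 in white matter, and 8 of 13 rose in the cortex libraries alone and 0 of 12 in the white matter libraries alone. Abca1, a cholesterol exporter, rose by 3.21 ± 0.48 in cortex and 1.61 ± 0.45 in white matter, and Gpnmb, of lipid-laden phagocytes, by 5.03 ± 1.16 in cortex and 5.55 ± 1.15 in white matter. Of 17 cholesterol synthesis genes no member was called in either response, with medians of −0.54 in cortex and −0.44 in white matter, and 2 were called lower in the cortex libraries alone. Hmgcs1, an early enzyme of that pathway, had 37.1, 42.1, 28.0, 12.8 and 33.5 CPM in cortex zone 1, against 80.3, 114, 75.7, 144 and 88.4 CPM in uninjured cortex, without overlap (−1.71 ± 0.51, adjusted p = 0.144, and 0.00255 in the cortex libraries alone).

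Of 13 mitochondrially encoded mRNAs 2 fell in white matter zone 1 (median −0.78) and none was called in cortex (median −1.13). In the cortex libraries alone 8 were called lower. In the white matter libraries alone 0 of the 13 were called. Of 20 collagen and basement membrane genes 2 rose in cortex and 2 in white matter, and of 16 proteoglycan genes 1 rose in each region. Over all genes 0.61% were called higher in cortex and 7.51% in white matter, and the white matter counts of both lists lie near that share. Of 13 matrix proteases and inhibitors 4 rose in white matter and none in cortex. In the cortex libraries alone these lists had 6 of 16, 7 of 13 and 6 of 8 members called higher, and in the white matter libraries alone 1 of 11, 0 of 14 and 0 of 8. Sparc, a secreted matrix protein, rose by 2.44 ± 0.59 in cortex and 3.40 ± 0.62 in white matter, and Fn1, fibronectin, by 3.08 ± 0.65 in cortex (adjusted p = 0.0159), with a white matter response of 0.74 ± 0.61 (adjusted p = 0.451). Tnc, tenascin C, had an interaction of 6.20 ± 1.66 (adjusted p = 0.0456). It had 0.650 to 37.1 CPM in cortex zone 1 and 0 to 1.12 CPM in uninjured cortex, with overlap. In white matter it had 0 to 39.9 CPM in zone 1 and 15.1 to 49.1 CPM in uninjured tissue. There 3 of 5 zone 1 libraries lay below every uninjured one. Of 13 endothelial, 8 mural, 2 ependymal and 2 red blood cell genes tested none had a called interaction, and 1 of 7 fibroblast markers had a lower response in cortex. With 1.88% of all genes called, an absence of calls in lists this small says little. Endothelial markers summed to 356.5 to 594.4 CPM in cortex zone 1 and 170.0 to 432.4 CPM in uninjured cortex, and to 196.2 to 556.7 CPM in white matter zone 1 and 292.0 to 439.1 CPM in uninjured white matter.

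Zones 2 to 5 were set beside zone 1, with medians of 5 libraries scaled over all IP libraries. They share the uninjured libraries with zone 1, so they are not independent of it. In cortex the median of Gfap was 1009, 967, 321, 115 and 59.9 CPM in zones 1 to 5, against 84.6 CPM in uninjured cortex. In white matter it was 2240, 2084, 1470, 1208 and 1430 CPM, against 1437 CPM in uninjured white matter. The interaction of Gfap in zone 2 was 2.84 (adjusted p = 0.0266). Mbp had cortex medians of 2391, 1260, 1014, 623 and 726 CPM in zones 1 to 5, against 783 CPM in uninjured cortex, and white matter medians of 6947, 12245, 27885, 19373 and 18111 CPM, against 23355 CPM in uninjured white matter.

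C1qb had cortex medians of 523, 143, 52.0, 21.9 and 15.1 CPM in zones 1 to 5, against 21.0 CPM in uninjured cortex. In white matter they were 643, 229, 276, 116 and 134 CPM, against 32.7 CPM in uninjured white matter, so the zone 5 median was near the uninjured one in cortex and above it in white matter. Snap25 had white matter medians of 1729, 1453, 1686, 1700 and 1538 CPM in zones 1 to 5, against 408 CPM in uninjured white matter, and no zone stood out. The 12 genes named for a lower response in cortex had a negative interaction in 12 of 12 cases in each of zones 2 to 5, of which 1 was called in zone 2, 3 in zone 3 and 2 in zone 5, while the lower calls over 18674 genes were 0.139% in zone 2, 2.09% in zone 3 and 0.798% in zone 5. The 12 shared genes were negative in 8, 12, 11 and 10 of 12 cases in zones 2, 3, 4 and 5. A negative sign was thus common outside the set named for it. The 12 named for a higher response in cortex had a positive interaction in 12 of 12 cases in zone 2 and in 4, 9 and 8 of 12 in zones 3, 4 and 5, with none called, while the higher calls over all genes were 0.0107% in zone 2, 0.348% in zone 3 and 0.0536% in zone 5.

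**Figure D5:**
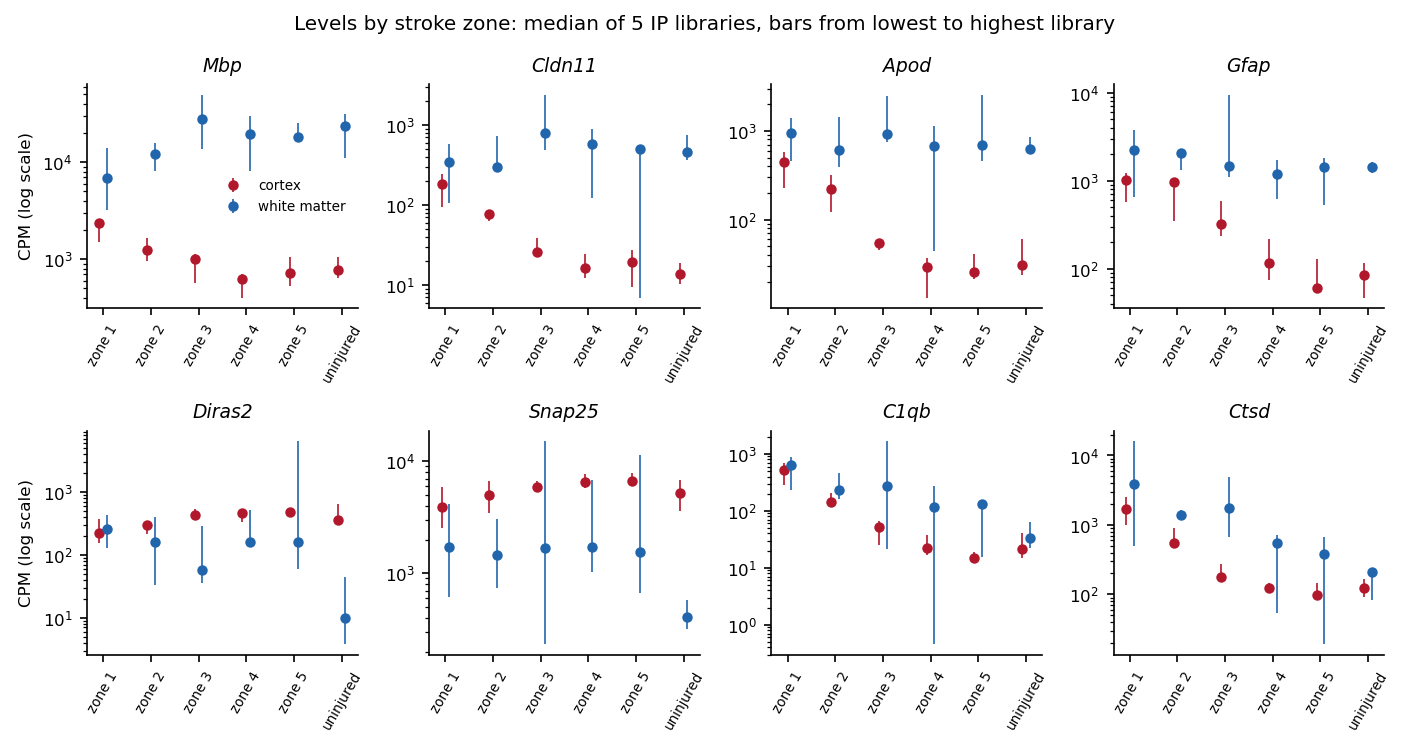
Median CPM (log scale) of 5 IP libraries in stroke zones 1 to 5 and in uninjured tissue of cortex and white matter, with bars from the lowest to the highest library, for 8 genes. Gfap, Cldn11, Apod, C1qb and Ctsd decline across the zones in cortex toward the uninjured level, and Snap25 stays above the uninjured median in every zone of white matter.

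RNA of the cleared lysate (input) was available for zones 1 to 3 as one piece, with 3 libraries a region, and for uninjured tissue, with 5. No interaction was called there over 18936 genes by edgeR's quasi-likelihood test, with 1971 at an unadjusted p under 0.05. The 12 genes named for a lower response in cortex had a negative input interaction in 12 of 12 cases, and the 12 named for a higher response a positive one in 9 of 12. The input interaction was also negative for 10 of the 12 shared genes, so a negative sign was not particular to the first set. The 12 shared genes had a positive input response in 12 of 12 cases in each region, of which 1 was called in cortex (background 0.00528%) and 8 in white matter (background 0.591%). In input, Mbp had an interaction of −0.51 ± 0.34 and Gfap of −0.01 ± 0.50, values from a wider tissue than zone 1. IP RNA of zones 1 to 3 as one piece (3 libraries a region) was set against the same uninjured IP libraries. Over 18674 genes its interaction called 0 higher and 2 lower, and its cortex response 0. Of the 12 named for a higher response in cortex 11 had a positive interaction and 8 a positive cortex response. Of the 12 named for a lower one 11 were negative, as were 11 of the 12 shared genes. None of these was called.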

How the data were processed

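RNA-seq libraries of mouse brain were made, per the labels' protocols, from laser-captured tissue by pull-down of tagged ribosomes, amplification and paired 50-base reads. The authors deposited raw gene counts for all libraries in one table. GRCm38 (mm10) is the build named in the submitters' processing notes. Aligner, counter, annotation and strand setting: not given in the sources used here. No molecular identifiers are given, so intervals and floors cover counting error only.

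Of 48795 gene identifiers 48435 had a symbol in GENCODE vM21, from which gene coordinates were taken. The features mt-Rnr1, mt-Rnr2, Gm42418, CT010467.1, Gm23935 and Lars2 were set aside. Genes with enough counts (minimum count 10, minimum total 15 in filterByExpr) were tested in edgeR 4.0.16 (R 4.3.3) with TMM scaling, 1 mean per group over the 20 libraries, quasi-likelihood tests and Benjamini-Hochberg adjustment at 0.05. CPM of single genes are TMM-scaled, and marker sums are plain CPM. Shares were compared by exact permutation of libraries. No replicate pair resembled a library deposited again: over 40 pairs chi-square over degrees of freedom was at least 5.28, for genes of at least 20 counts. Scripts were tested on simulated data. The labels give no sequencing batch. Labels and table columns name the regions differently, and columns were matched to samples by their descriptions.

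Named genes were, above a mean of 1 log2 CPM and leaving out predicted, ribosomal protein, mitochondrial and small RNA genes and pseudogenes, the 12 with the lowest interaction p in each direction, the 12 with the lowest larger p of a shared response, up to 4 of each list by either measure with its most abundant member, and reference genes. The members, lists and motifs were chosen with earlier results of these data known. Some genes that the rule names are not reported here. Alternatives were DESeq2 1.42.0, limma 3.58.1 voom, other filters, scalings and sample sets, a replicate block and leaving out each library. The voom fit with a spread for each region, the fit of each region alone in both regions together, and the comparisons of zones 2 to 5 and of input were added after the data were seen.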

Additional observations from a re-analysis of the deposited data

Results flagged for a closer look

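Single libraries stood far from the other 4 of their group in 14 of 124 groups of values examined, by Dixon's gap ratio at its 95% critical value of 0.71. Chance alone flags about 1 in 20 such groups. In white matter zone 1 replicate 1, which had the fewest genes detected, Mag reached 1235 CPM, Ctsd 19918 CPM and Ifi27l2a 849 CPM. Npas4 was highest in replicate 5 of 3 groups, with 8.64 CPM in cortex zone 1, 58 CPM in uninjured cortex and 173 CPM in white matter zone 1. Aqp4 was lowest in white matter zone 1 replicate 5, at 46.3 CPM, and Vim in uninjured white matter replicate 3, at 20.5 CPM. Plekhb1 was high in cortex zone 1 replicate 3, at 224 CPM. In uninjured cortex replicate 4 Apod reached 66 CPM and the astrocyte markers summed to 13800 CPM. Genes near 0 were flagged for a single detected library: Cxcl10 in uninjured white matter replicate 4 at 0.499 CPM, and Ifi27l2a in uninjured cortex replicate 1 at 0.923 CPM and in uninjured white matter replicate 2 at 0.795 CPM.

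The responses of the 2 regions differed by the interaction test for 38 genes named in the text. The interaction (log2, cortex response minus white matter response) was 4.06 for Cldn11, 4.37 for Plxnb3, 2.99 for Mbp, 3.50 for Gjc3, 3.13 for Apod, 4.00 for Bcas1os1, 3.64 for Ermn, 3.07 for Plekhb1, 4.05 for Mag, 2.54 for Nfasc, 3.06 for Sema6d and 3.58 for Tmem63a. It was 2.81 for Gfap, 3.15 for Trf, 2.76 for Bcas1, 3.21 for Olig1, 2.63 for Slc12a2, 2.80 for Ndrg1, 6.20 for Tnc and 6.99 for Top2a. In the other direction it was −10.05 for Npas4, −4.62 for Diras2, −4.26 for Chgb, −3.92 for Prkce, −3.73 for Nptx1, −7.54 for Osbpl3, −4.68 for Chrnb2, −5.54 for Cfap54, −7.33 for Ptprr, −6.14 for Sh3bp1 and −3.13 for Chd5. Among synaptic, cytoskeletal and phagocytic genes it was −2.46 for Snap25, −3.85 for Syp, −2.46 for Syn1, −1.81 for Map2, −1.77 for Map1b, −3.75 for Sv2b and −3.89 for Gas6.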

How the results depend on the processing

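The interaction count of 274 became 931 with DESeq2 (323 higher and 608 lower, 245 of the 274 among them), 774 with no filter, 453 with all 12 IP groups in one fit, 1024 without the 3 shallow zone 1 libraries and 132 with the replicate number as a block. The cortex count of 89 became 54 with DESeq2 size factors, 256 with DESeq2, 162 with no filter, 196 without the shallow libraries, 664 in cortex libraries alone and 620 with voom and a spread per region. The white matter count of 1576 became 2720 with DESeq2, 2478 with no filter, 691 with the block, 47 in white matter libraries alone and 276 with voom and a spread per region. Between zone 1 groups the count of 188 became 425 with DESeq2 size factors, 1047 with DESeq2, 737 with no filter, 301 with a minimum count of 30, 440 with 12 groups, 40 with the block, 43 without shallow libraries and 86 with voom and a spread per region. Between uninjured groups 2117 became 3284 without shallow libraries. The shared count of 41 became 124 with DESeq2, 78 with no filter, 70 without shallow libraries and 19 with each region alone. With 1 library left out the ranges were 92 to 866 for the interaction, 34 to 220 for cortex, 1097 to 1974 for white matter, 35 to 728 between zone 1 groups, 1587 to 2966 between uninjured groups and 18 to 79 shared. The mitochondrial ribosomal share differed by −21.8 to −18.0 points in cortex and −8.80 to −4.51 in white matter, where it passed without zone 1 replicate 5 (−8.80, exact p = 0.0476). The cause of these moves was not tested. Correlations of deviations from group means between same-numbered libraries were −0.0726 to 0.083. They were not set against libraries with different numbers, so they cannot tell whether replicate numbers pair libraries. DESeq2 size factors moved the median of all genes by −0.216 in the interaction, 0.138 in white matter and 0.117 between uninjured regions, and limma voom by −0.157 in cortex, −0.181 in white matter, 0.405 between zone 1 groups and 0.398 between uninjured regions. Of 152 gene values examined, none changed sign in these settings. Among the genes with a called interaction, the interaction call was lost in 22 of 30 settings for Slc12a2, 20 for Tnc, 14 for Sv2b, 13 for Map2 and Gas6, 11 for Olig1, 7 for Ndrg1 and Trf, 6 for Bcas1, Map1b and Syn1, 4 for Top2a and 1 for Snap25 (12 groups in one fit) and Sh3bp1 (DESeq2). In all 30 settings it was kept for Gfap, Syp and the other genes named by lowest interaction p with a value here. Among genes the results describe, the cortex call was lost in 12 of 31 settings for Aqp4 and Top2a, 11 for Sparc and Gpnmb, 10 for Nfasc, 6 for Ermn and Fn1, 4 for Cd68 and 1 for Mki67 and Plxnb3. The white matter call was lost in 7 of 31 settings for Bcas1, 6 for Nfasc, 5 for Ermn and Abca1, 4 for Plxnb3 and 3 for Mbp, C4b, Lyz2 and Cd68, and in 1 or 2 for some others. Depth limits the low genes, whose fold changes rest on few counts.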
